A study of Mus musculus with 23 samples.

Results

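The genes described here are 48 genes whose transcription type I interferon is known to raise, read in type 1 conventional dendritic cells (cDC1) sorted from mouse melanomas. They were picked by gene symbol from a fixed list and split by role into sensors of foreign or misplaced nucleic acid, transcription factors, and effectors. Interferon-inducible GTPases of the Irg and Gbp families, HIN200 proteins and Ifitm proteins were kept out of the list. Of the 48 genes, 47 were found among the 13572 gene rows, and Ifit1bl1 was not analysed here. The 47 comprise 5 sensors, 4 transcription factors and 38 effectors.

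Type I interferons are secreted proteins that bind a receptor made of Ifnar1 and Ifnar2 on nearly every cell. The receptor's kinases Jak1 and Tyk2 switch on the complex ISGF3, which includes Stat2 and Irf9 and binds interferon-stimulated response elements (ISRE) in the promoters of its target genes. In cDC1, dendritic cells that present antigen taken up from tumours to CD8 T cells, interferon signalling is known to be required for rejection of immunogenic tumours.

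All mice were wild-type C57BL/6 animals with BRAFV600E melanoma cells injected under the skin, and tumours were taken 6 days later. The control group carried tumours of control melanoma cells, and the PGE2-deficient group carried tumours of melanoma cells knocked out for Ptgs1 and Ptgs2, which encode the cyclooxygenases needed to make prostaglandin E2 (PGE2). The knockout is in the cancer cells alone, so the sorted host cells keep both genes and their RNA does not test it. Each group had 4 mice, with 12 control pools and 11 PGE2-deficient pools of 10 cells. After collagenase and DNase digestion and a density gradient, live CD45+ cells were gated on MHC-II and CD11c, then on CD103 without CD11b. PGE2-deficient mouse 2 had 2 pools, and the other mice had 3. Smart-seq3, which reads whole transcripts from a few cells, was used for the libraries. The mice's age, and whether each melanoma line is a single clone, is not given in the sources used here. Cells of receptor-deficient host mice, also named in the protocols, were not analysed here.

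Promoters were searched for the element that ISGF3 binds. The RefSeq promoter table (build GRCm38.p6, 250 bases before to 50 after each start) held entries for 36 of the 47 members. The ISRE core, which is GAAA, any 2 bases and GAAA again, was searched on both strands and occurred in 19 of these 36 members (52.8%), against 3.99% of the 27018 genes with an entry. By role, the core was found in 3 of 3 sensors, 1 of 4 transcription factors (Stat2) and 15 of 29 effectors. The element TTCNNNGAA (GAS), which reads the same on both strands, occurred in 7 of the 36 members (19.4%), against 9.55% of genes. Matches of the 2 motifs were counted separately, whether or not they overlapped. A match is a string of letters and was not tested as a binding site.

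The promoters printed belong to called members or to a pair of near copies; each is 5′ to 3′ on the gene's own strand (minus in each of them) with ISRE cores in capitals. Isg15 lies at chr4:156200769-156201068, Phf11b at chr14:59341281-59341580, Trim30a at chr7:104465144-104465443, Oas1a at chr5:120907476-120907775 and Oas1g at chr5:120887564-120887863. In Isg15, 3 cores overlap in a single run that begins 78 bases before the start. In Trim30a the core lies on the opposite strand, so the capitals are its reverse complement. Oas1a and Oas1g each hold 2 overlapping cores with the same letters.
Isg15: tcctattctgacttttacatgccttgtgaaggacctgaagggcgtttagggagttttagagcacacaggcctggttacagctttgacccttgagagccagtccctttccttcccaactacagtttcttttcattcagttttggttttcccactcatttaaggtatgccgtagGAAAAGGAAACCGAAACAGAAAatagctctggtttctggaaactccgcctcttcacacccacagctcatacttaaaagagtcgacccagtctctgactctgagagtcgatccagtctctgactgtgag
Phf11b: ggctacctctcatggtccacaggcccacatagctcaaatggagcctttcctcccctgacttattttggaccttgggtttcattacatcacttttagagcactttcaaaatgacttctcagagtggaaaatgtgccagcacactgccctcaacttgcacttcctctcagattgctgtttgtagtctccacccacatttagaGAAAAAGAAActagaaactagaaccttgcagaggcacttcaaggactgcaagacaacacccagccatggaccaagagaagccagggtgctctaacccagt
Trim30a: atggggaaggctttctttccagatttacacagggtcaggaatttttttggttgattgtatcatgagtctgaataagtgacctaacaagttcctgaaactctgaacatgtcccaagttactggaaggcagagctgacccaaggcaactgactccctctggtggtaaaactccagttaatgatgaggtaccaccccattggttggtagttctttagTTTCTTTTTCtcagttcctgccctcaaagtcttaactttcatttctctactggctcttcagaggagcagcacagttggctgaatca
Oas1a: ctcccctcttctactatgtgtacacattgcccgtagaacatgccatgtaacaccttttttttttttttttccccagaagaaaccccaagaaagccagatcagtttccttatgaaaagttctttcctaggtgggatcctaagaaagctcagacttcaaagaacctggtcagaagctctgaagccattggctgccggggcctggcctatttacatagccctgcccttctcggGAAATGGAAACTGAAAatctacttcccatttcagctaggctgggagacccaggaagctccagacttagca
Oas1g: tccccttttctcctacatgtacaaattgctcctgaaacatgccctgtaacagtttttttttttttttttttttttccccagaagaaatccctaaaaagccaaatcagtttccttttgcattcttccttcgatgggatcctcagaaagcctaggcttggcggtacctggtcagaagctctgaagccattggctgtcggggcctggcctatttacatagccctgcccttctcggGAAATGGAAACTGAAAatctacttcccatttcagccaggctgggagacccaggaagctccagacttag

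**Figure D1:**
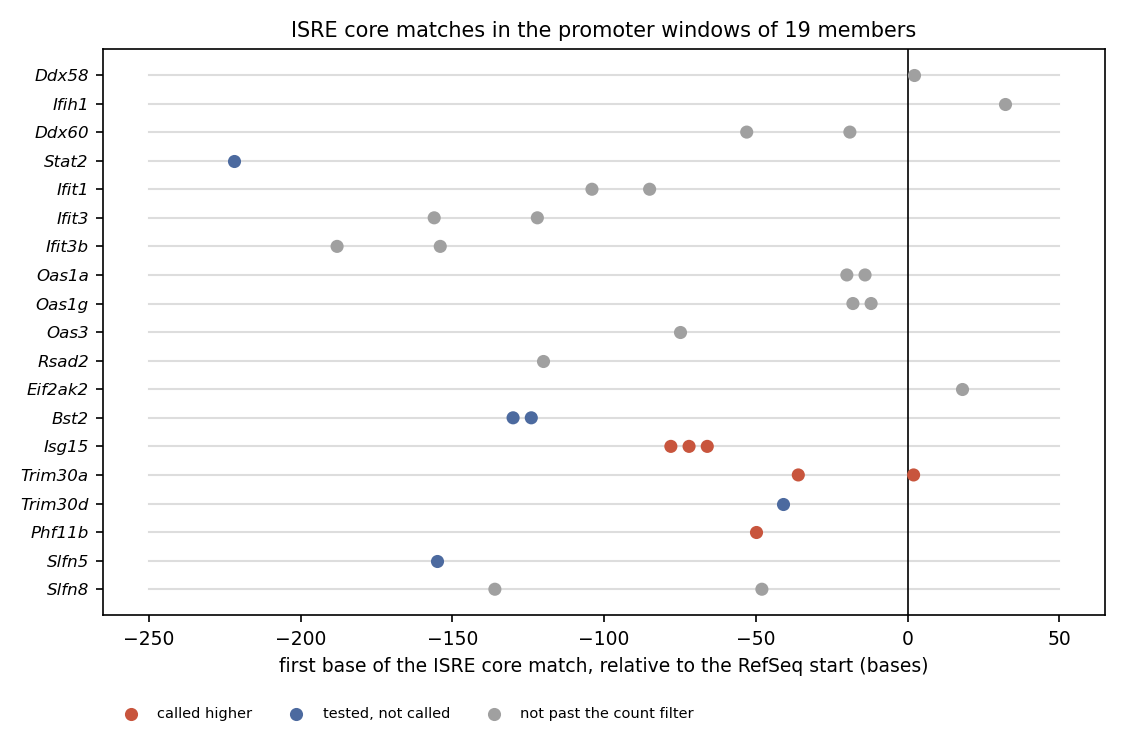
Position of each ISRE core match (x axis, bases from the RefSeq start) in the 19 members with a match, 1 line per gene; colours give the result of the edgeR test. A gene with several RefSeq starts has its matches drawn relative to each start, so a single site can appear more than once. Of 30 matches, 25 lie between 1 and 200 bases before a start, and the median is 69 bases before it.

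The libraries were shallow, which sets what can be said of each gene. Totals were 25571 to 98554 counts per pool and 101017 to 230478 per mouse. Pools of a mouse were summed, and CPM are counts scaled to a common total, here each mouse's total over tested genes with TMM factors. A count filter left 2076 genes for the edgeR quasi-likelihood test, of which 56 (2.70%) were higher in the PGE2-deficient group and 47 (2.26%) were lower, at an adjusted p below 0.05. All 12 markers fixed for cDC1 were counted, with a summed level of 2487 to 4005 CPM in control mice and 4475 to 6510 CPM in PGE2-deficient mice. Mice of the groups were apart, and 4 of the 11 cDC1 markers tested were called higher. Some pools also held markers of other cells. Summed over 8 plasmacytoid dendritic cell (pDC) markers there were 226 counts in control and 33 in PGE2-deficient pools, with Siglech, Ly6d, Klk1, Cox6a2 and Klra17 at 0 in the latter. Mice of the groups overlapped for pDC markers (57.5 to 1044 against 33.0 to 119 CPM). Over 9 macrophage markers there were 265 against 27 counts, with 116 in pool 2 of control mouse 2 and 123 in pool 1 of control mouse 4. Over 11 T cell markers there were 18 against 75, with 37 in pool 2 of PGE2-deficient mouse 4. Mice overlapped for macrophage (10.0 to 1066 against 16.5 to 94.9 CPM) and T cell markers (0 to 173 against 0 to 305 CPM). Over 8 cDC2 markers there were 198 against 52 counts, and mice of the groups were apart (301 to 713 against 39.0 to 237 CPM). Over 11 markers of mature dendritic cells there were 483 against 1343 counts (736 to 1490 against 1286 to 5184 CPM), and 4 of 6 tested were called higher. Over 4 monocyte markers there were 581 against 925 counts, and mice of the groups overlapped (1001 to 1795 against 1082 to 2419 CPM). Over 4 NK cell markers there were 133 against 197 counts, also with overlap (146 to 549 against 173 to 534 CPM). The part of cDC1 marker level, of cDC2, of maturation, of monocytes and of NK cells in the results was not tested.

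Of the members tested, 1 sensor and 4 effectors rose with PGE2-deficient tumours. Ifi27l2a, Isg15, Phf11b, Zbp1 and Trim30a were called higher, and no member was called lower. These are 5 of the 17 members past the filter (against 2.70% of all tested genes), and the other 12 were not called. All 17 fold changes were positive, with a median log2 fold change of 0.91, against 0.01 over all tested genes. At an unadjusted p under 0.05 there were 13 of the 17, against 389 of the 2076 tested genes, and DESeq2 called 5 members. The count was 10 without control mouse 1 and 11 without PGE2-deficient mouse 2, when more members passed the filter (23 and 24). The filter itself selects here. Only Ifi27l2a, Trim30a, Slfn5 and Sp100 passed the filter's level in all 4 control mice. The other 13 reached it in fewer than 4 control mice and passed with the help of PGE2-deficient mice, so the filter favours members that are high in that group, and the 17 do not stand for the whole list. In 7 of the 17, every PGE2-deficient mouse was above every control mouse, as in 4.91% of tested genes.

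Summed over all 47 members there were 1351 counts in control and 4288 in PGE2-deficient mice. The summed level was 4417, 2168, 3523 and 2854 CPM in control mice 1 to 4 and 8430, 6868, 9476 and 8147 CPM in PGE2-deficient mice 1 to 4. Mice of the 2 groups did not overlap, and the mean was 3241 ± 960 CPM against 8230 ± 1073 CPM (SD, n = 4 each), a ratio of 2.54. Ifi27l2a alone made up 26.3% of the gap, and without it the ratio was 2.26. The mean log2 CPM over the 47 genes (prior count 2), in which each gene weighs the same, was 6.21, 5.42, 5.84 and 5.56 in control mice and 6.94, 6.42, 6.83 and 6.72 in PGE2-deficient mice. These groups were also apart, with 5.76 ± 0.35 against 6.73 ± 0.23 (SD, n = 4), a difference of 0.97.

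By role, the mean log2 CPM of the 5 sensors was 5.31 ± 0.34 in control and 5.86 ± 0.15 in PGE2-deficient mice, a difference of 0.55, and mice of the groups overlapped. Their summed level was 156 ± 65.2 against 358 ± 22.3 CPM (SD, n = 4), a ratio of 2.29, and on this scale mice did not overlap. For the 4 transcription factors the mean log2 CPM was 6.50 ± 0.41 against 7.60 ± 0.18 (SD, n = 4), a difference of 1.10 with no overlap. For the 38 effectors it was 5.74 ± 0.37 against 6.75 ± 0.26 (SD, n = 4), a difference of 1.01 with no overlap. In RNA from pools of cells, fewer cells that make a transcript and less transcript per cell cannot be told apart.

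**Figure D2:**
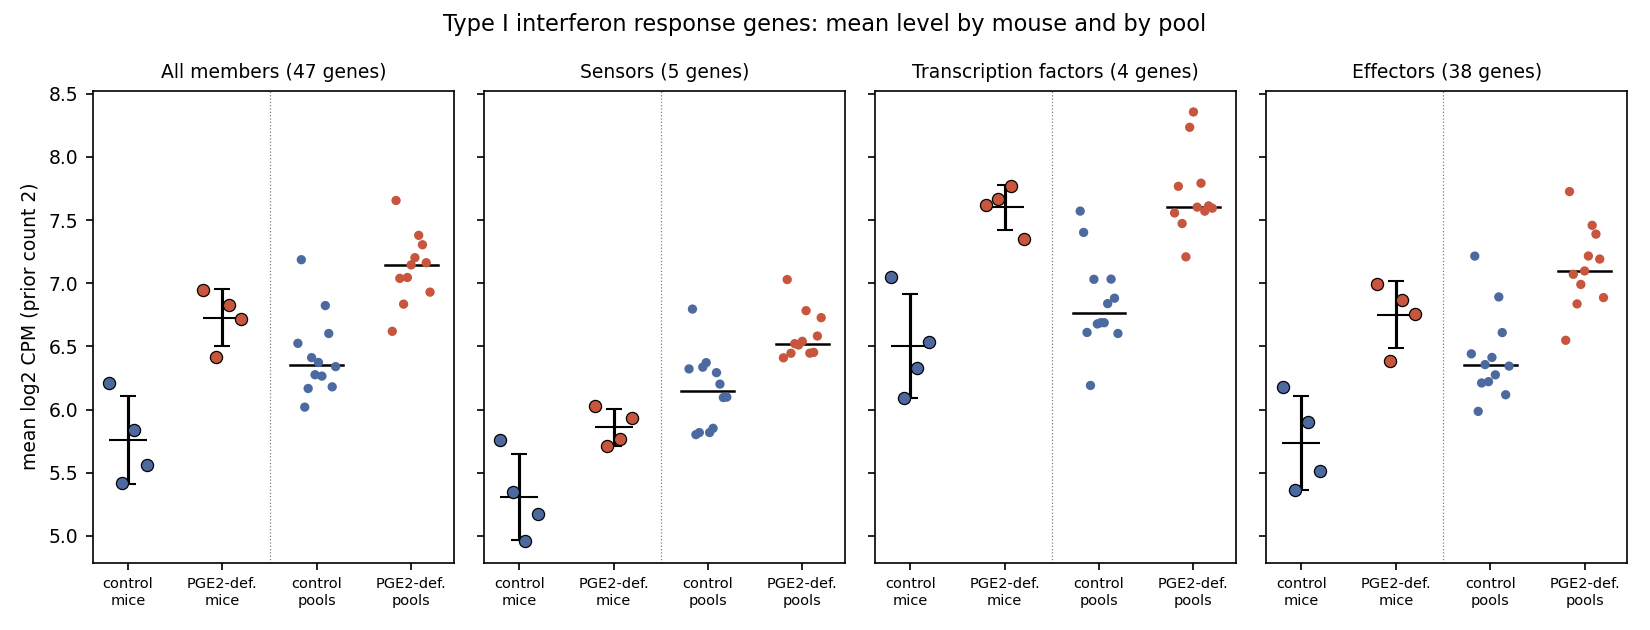
Mean log2 CPM (y axis) of all members and of each role, for mice (left of each panel, with mean and SD) and for single pools of 10 cells (right, with the median as a line). PGE2-deficient mice lie above control mice for all members, transcription factors and effectors, and 1 control mouse overlaps them for sensors. Because the prior count weighs more in a shallow library, pool values sit above mouse values and are not compared with them.

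Among single pools, the mean over all members ran from 6.02 to 7.19 (median 6.36) in the 12 control pools and from 6.62 to 7.66 (median 7.14) in the 11 PGE2-deficient pools. Pools overlapped where mice did not. Of the PGE2-deficient pools, 4 were above the highest control pool, and 10 control pools were below the lowest PGE2-deficient pool. The highest control pool was pool 2 of mouse 1, at 7.19, with 15 T cell marker counts. Its 2 sister pools stood at 6.52 and 6.02. The standard deviation between pools of a mouse was 0.35 in control and 0.29 in PGE2-deficient mice. A control pool held counts of 14 to 39 members (median 23) and a PGE2-deficient pool of 26 to 42 (median 37). Per gene, the share of pools with a count was larger in the PGE2-deficient group for 40 members, smaller for 3 and the same for 4. Depth enters these numbers, as the 11 PGE2-deficient pools held 609675 counts and the 12 control pools 542886. The same share over all genes was not computed, so these numbers are not read as a result about the members.

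**Figure D3:**
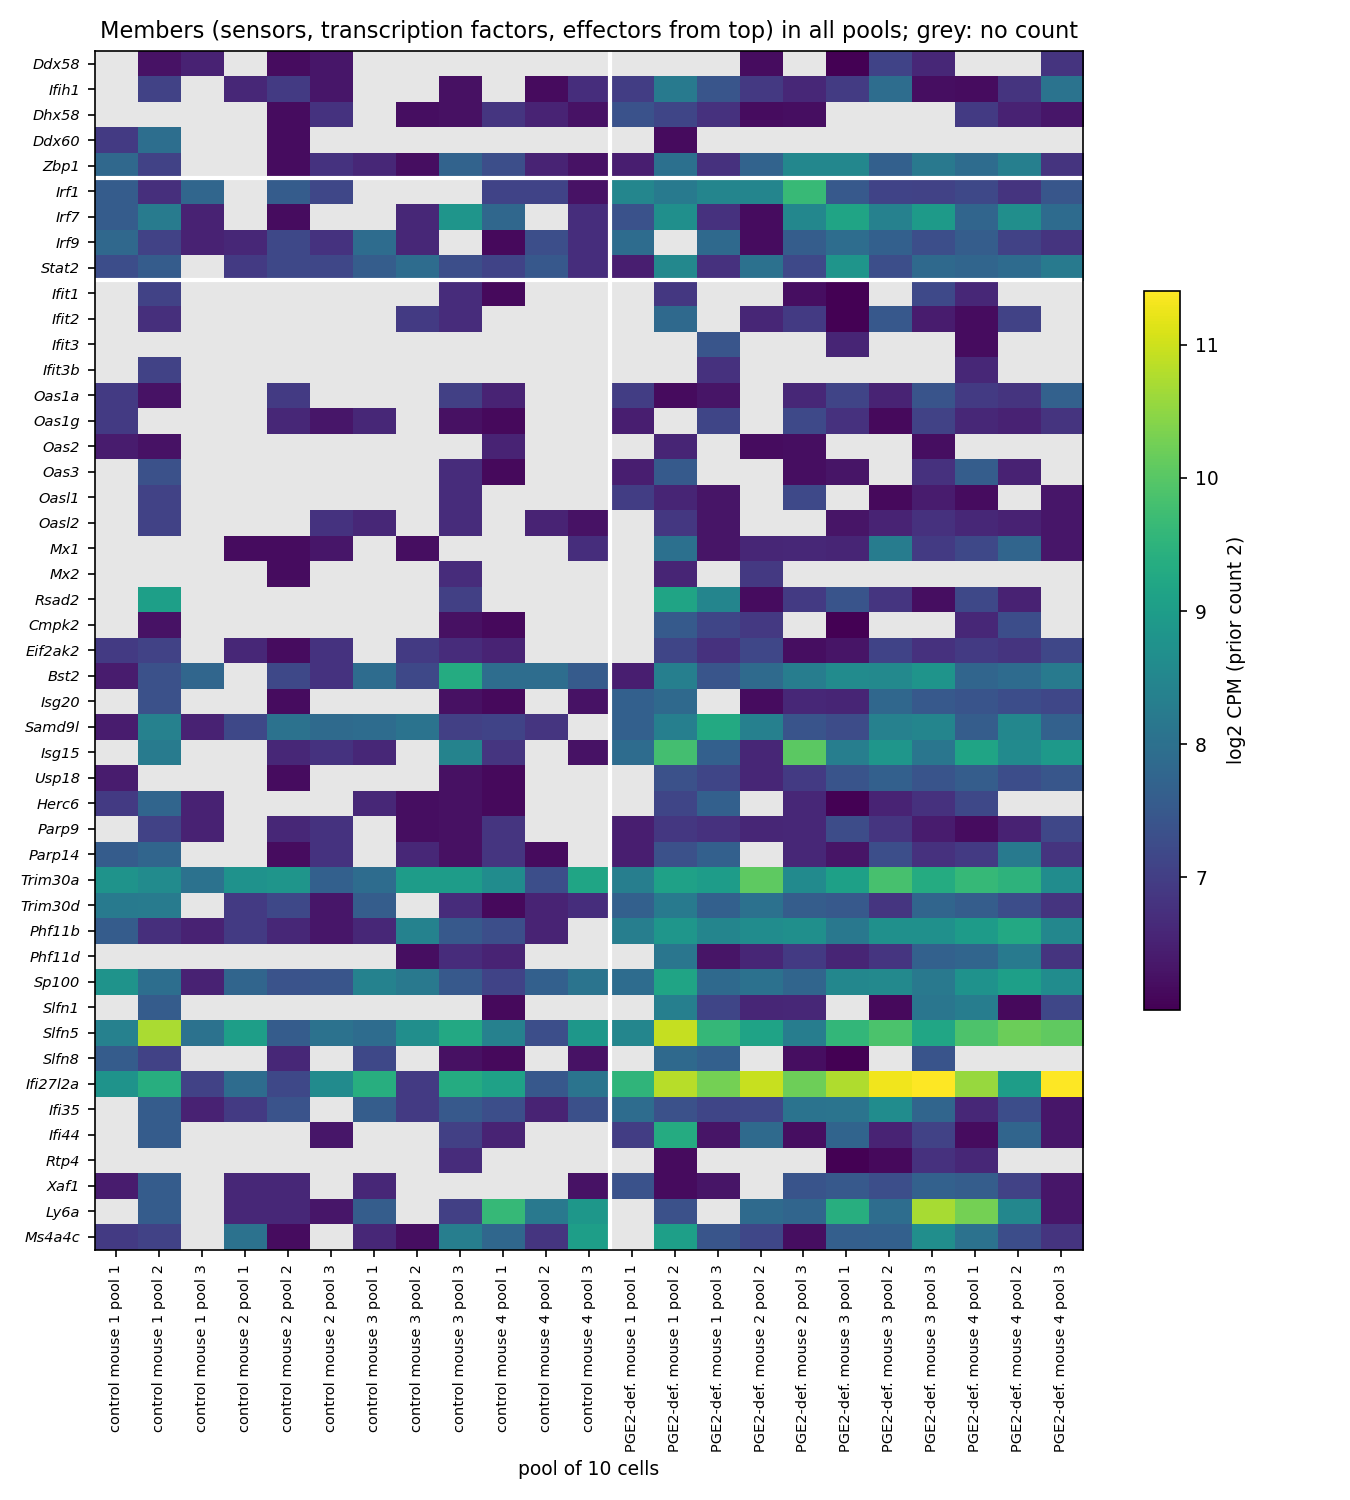
Level of each of the 47 members (lines) in each of the 23 pools (columns) as log2 CPM (prior count 2, colour), with grey where no read was counted. Counts fill 17 members in every PGE2-deficient pool and 4 in every control pool, and pool 2 of control mouse 1 and pool 3 of control mouse 3 are the fullest control columns. Deeper pools fill more of the map, and the PGE2-deficient pools held more counts in all.

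Sensors detect viral or misplaced nucleic acid inside the cell and start interferon transcription, and most are themselves raised by interferon. Zbp1, which binds left-handed double-stranded nucleic acid and can trigger necroptosis, measured 92.0, 25.8, 80.3 and 62.7 CPM in control mice 1 to 4 and 117, 237, 245 and 189.9 CPM in PGE2-deficient mice 1 to 4. Every PGE2-deficient mouse was above every control mouse, and the lowest was mouse 1. Zbp1 rose by 1.63 ± 0.38 on the log2 scale (SE, adjusted p = 0.0180). The call was lost without control mouse 2 or without PGE2-deficient mouse 3, and the adjusted p over all alternatives was 0.00352 to 0.0601.

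The other sensors had too few counts for the test. Ifih1 encodes MDA5, the sensor of long double-stranded RNA. It measured 34.5, 51.6, 10.0 and 23.5 CPM in control mice and 166, 59.3, 81.6 and 90.8 CPM in PGE2-deficient mice, from 13 and 49 counts. The groups did not overlap, and Ifih1 had a count in 11 of 11 PGE2-deficient pools and 7 of 12 control pools. In the fit without a count filter its log2 fold change was 1.66 ± 0.53 (SE, edgeR adjusted p = 0.0901). That fit gives little weight to each gene's own spread between mice, so its adjusted p, here and below, is read with caution. Ddx58 (RIG-I, a sensor of RNA ends) had 4 and 12 counts, and Dhx58 (LGP2, which modulates both) had 11 and 17. Ddx60, a helicase with antiviral activity, had 10 counts in control and 1 in PGE2-deficient pools. Of the 10, 9 came from control mouse 1, and the unfiltered fit gave a log2 fold change of -3.08 ± 1.23 (SE, edgeR adjusted p = 0.313).

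The 4 transcription factors all passed the count filter and none was called, with log2 fold changes of 0.63 to 1.82. Irf7, the factor that drives transcription of most interferon alpha genes, measured 161, 8.60, 171 and 78.4 CPM in control mice and 205, 166, 434 and 248 CPM in PGE2-deficient mice. Control mouse 3 was above PGE2-deficient mouse 2, so the groups overlapped. The log2 fold change was 1.44 ± 0.45 (SE, adjusted p = 0.0681). Plasmacytoid dendritic cells are known for high Irf7, and the pDC marker sums of control mice 1 to 4 were 57.5, 241, 1044 and 698 CPM. Irf7 was at 161 CPM in mouse 1, with the lowest sum, and at 171 CPM in mouse 3, with the highest. The control pool with most Irf7 counts, 15, was pool 3 of mouse 3, which held 78 pDC marker counts. In pools with under 10 marker counts of pDC, macrophages and T cells, Irf7 had 9 counts in control and 80 in PGE2-deficient pools. That is a ratio of 5.89 per total count. The part of pDC in the Irf7 level was not tested.

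Stat2, a subunit of ISGF3, measured 92.0, 86.0, 151 and 94.1 CPM in control mice and 166, 154, 239.8 and 198 CPM in PGE2-deficient mice. All PGE2-deficient mice were above all control mice, with control mouse 3 close to the lowest of them. The log2 fold change was 0.88 ± 0.31 (SE, adjusted p = 0.112). Irf1, which acts downstream of interferon gamma as well as type I interferon, had 28 and 104 counts and a log2 fold change of 1.82 ± 0.59 (SE, adjusted p = 0.0795). It stood at 283 and 522 CPM in PGE2-deficient mice 1 and 2 and at 102 and 90.8 CPM in mice 3 and 4. The summed level of 11 mature dendritic cell markers was 4415, 5184, 1286 and 1659 CPM in PGE2-deficient mice 1 to 4, also highest in mice 1 and 2. In control mice that sum was 736, 1282, 803 and 1490 CPM and Irf1 was 115, 77.4, 0 and 70.6 CPM, with the highest Irf1 in the mouse of the lowest sum. The part of maturation in the Irf1 level was not tested. Irf9, which brings the complex to DNA, had 31 and 59 counts and a log2 fold change of 0.63 ± 0.36 (SE, adjusted p = 0.371).

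Among the 38 effectors, 12 were tested and 4 were called higher, against 2.70% of all tested genes. The effector with the largest summed count and gap was Ifi27l2a, a small membrane protein of the ISG12 family encoded at chr12:103442167-103443680 (minus strand, GRCm38). It measured 403, 198, 381 and 290.1 CPM in control mice and 1306, 1542, 2286 and 1387 CPM in PGE2-deficient mice. Every PGE2-deficient mouse was far above every control mouse. Ifi27l2a rose by 2.38 ± 0.23 on the log2 scale (SE, adjusted p = 2.03e-06). It had a count in all 23 pools, from 72.2 to 624 CPM (median 281) in control and 464 to 2668 CPM (median 1686) in PGE2-deficient pools.

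Isg15 encodes a ubiquitin-like protein that is attached to newly made proteins during an antiviral response, at chr4:156199424-156200818 (minus strand). It measured 104, 34.4, 120.4 and 31.4 CPM in control mice and 458, 522, 286 and 429 CPM in PGE2-deficient mice. The groups were far apart, and Isg15 rose by 2.58 ± 0.37 on the log2 scale (SE, adjusted p = 0.000237). In pools with under 10 marker counts of pDC, macrophages and T cells the log2 fold change was 4.84, resting on 3 control counts. It had a count in 7 of 12 control pools and in 11 of 11 PGE2-deficient pools. Usp18, the protease that removes Isg15 and also restrains the interferon receptor, measured 11.5, 8.60, 10.0 and 7.84 CPM in control mice, which is a single count in each. In PGE2-deficient mice it stood at 78.0, 59.3, 128 and 124 CPM, so the groups were apart. It missed the filter. From 4 and 53 counts the ratio was 11.3 (95% interval 4.17 to 43.0, counting error only), and the unfiltered fit gave a log2 fold change of 3.29 ± 0.66 (SE, edgeR adjusted p = 0.000145). Herc6, a ligase that attaches Isg15, had 13 and 23 counts.

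Trim30a, Phf11b and Sp100 belong to families of nuclear or regulatory proteins. Phf11b, a PHD finger protein at chr14:59320964-59341351 (minus strand), measured 80.5, 51.6, 181 and 54.9 CPM in control mice and 341, 356, 327 and 462 CPM in PGE2-deficient mice. The groups did not overlap, and Phf11b rose by 2.04 ± 0.34 on the log2 scale (SE, adjusted p = 0.00136). Of its annotated 50-base stretches, 47.0% also occur in other genes, Phf11a first among them, so its counts may include reads of those copies. Phf11d, its neighbour, had 5 and 56 counts. Its ratio was 9.56 (95% interval 3.86 to 30.6, counting error only), and the unfiltered fit gave a log2 fold change of 3.12 ± 0.62 (SE, edgeR adjusted p = 0.000113).

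Trim30a, a brake on Toll-like receptor signalling at chr7:104409025-104465193 (minus strand), measured 322, 327, 401 and 314 CPM in control mice and 429, 688, 623 and 611 CPM in PGE2-deficient mice. The groups were apart, but PGE2-deficient mouse 1 was close to control mouse 3. Trim30a rose by 0.79 ± 0.21 on the log2 scale (SE, adjusted p = 0.0406). This was the least stable of the 5 calls. It was lost in 6 of 11 alternative analyses and in 7 of 8 fits without 1 mouse, the exception being PGE2-deficient mouse 1, with log2 fold changes of 0.42 to 0.90 and adjusted p of 0.0214 to 0.620 over all of these. Sp100, a nuclear body protein, measured 219, 138, 211 and 149 CPM in control mice and 331, 189.8, 286 and 413 CPM in PGE2-deficient mice. PGE2-deficient mouse 2 overlapped the controls, and the log2 fold change was 0.80 ± 0.29 (SE, adjusted p = 0.118). Trim30d had 34 and 74 counts and a log2 fold change of 0.88 ± 0.43 (SE, adjusted p = 0.278).

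**Figure D4:**
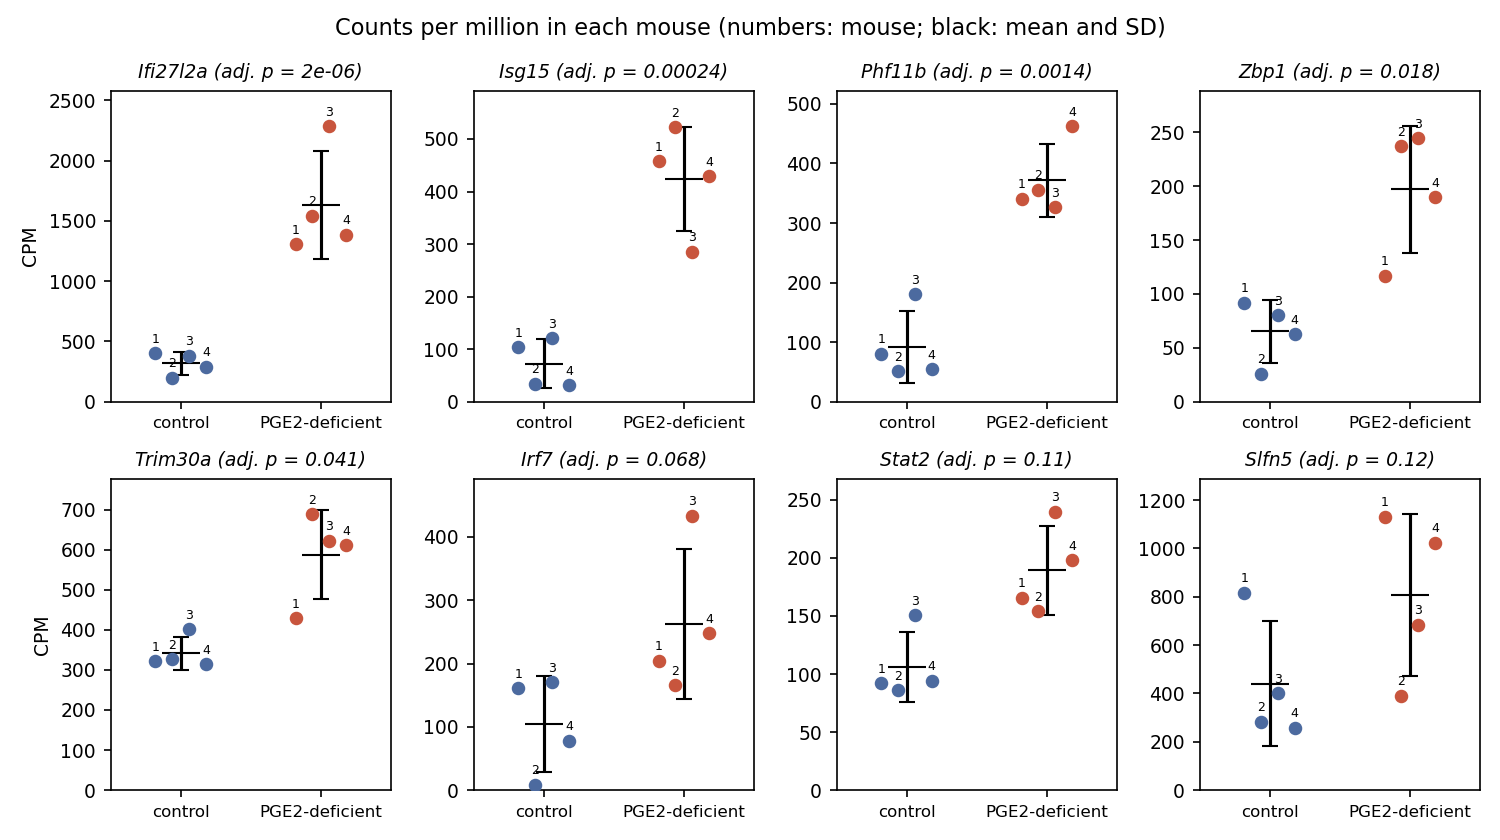
CPM (y axis, from 0) in each of 4 control and 4 PGE2-deficient mice for the 5 called members and for Irf7, Stat2 and Slfn5, which were not called; digits give the mouse, and black marks the mean and SD. The groups are apart in the 5 called members and Stat2, and they overlap in Irf7 and Slfn5.

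Schlafen proteins restrain growth and translation in lymphoid and myeloid cells. Slfn5 had the second highest count of all members and measured 817, 284, 401 and 259 CPM in control mice and 1131, 391, 684 and 1024 CPM in PGE2-deficient mice. Control mouse 1 was above PGE2-deficient mice 2 and 3, so the groups overlapped. The log2 fold change was 0.91 ± 0.33 (SE, adjusted p = 0.119). Slfn1 measured 57.5, 0, 0 and 7.84 CPM in control mice and 146, 47.4, 102 and 124 CPM in PGE2-deficient mice. Of the control mice, mouse 1 alone was above the lowest PGE2-deficient mouse, so the groups overlapped. Slfn1 was not tested. Without the filter its log2 fold change was 2.80 ± 0.60 (SE, edgeR adjusted p = 0.000657). Slfn8 had 14 and 25 counts.

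The antiviral enzymes and restriction factors act on steps of virus replication. Bst2 (tetherin), which holds budding virus at the cell surface, measured 104, 51.6, 301 and 180.3 CPM in control mice and 166, 225, 362 and 198 CPM in PGE2-deficient mice. Control mice 3 and 4 overlapped the other group, and the log2 fold change was 0.62 ± 0.39 (SE, adjusted p = 0.422). Bst2 is a known pDC antigen of the mouse, and mice 3 and 4, the highest controls for Bst2, had pDC marker sums of 1044 and 698 CPM, against 57.5 and 241 CPM in mice 1 and 2. In pools with under 10 marker counts of other cells, Bst2 had 16 counts in control and 62 in PGE2-deficient pools, a ratio of 2.57 per total count. The part of pDC in the Bst2 level was not tested. Samd9l, a restriction factor that blocks translation, measured 138, 163, 161 and 54.9 CPM in control mice and 341, 202, 229.6 and 215 CPM in PGE2-deficient mice. The groups were apart, and the log2 fold change was 0.95 ± 0.32 (SE, adjusted p = 0.102).

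The other 6 genes of this kind were not tested. Mx1, a GTPase whose protein is inactive in most laboratory strains, had 6 and 48 counts, with every PGE2-deficient mouse above every control mouse. Isg20, an exonuclease, had 8 and 50 counts. In the unfiltered fit the log2 fold change of Mx1 was 2.64 ± 0.63 (SE, edgeR adjusted p = 0.00337), and that of Isg20 was 2.28 ± 0.58 (SE, edgeR adjusted p = 0.0101). Rsad2 (viperin) makes an altered nucleotide, and Cmpk2 is its neighbour. Rsad2 had 20 counts in control, 17 of them in mouse 1, and 56 in PGE2-deficient pools, 33 of them in mouse 1. Cmpk2 had 3 and 20 counts, a ratio of 5.69 (95% interval 1.69 to 29.9, counting error only). Eif2ak2 (PKR, a kinase that stops translation) had 17 and 31 counts. Mx2, annotated as a polymorphic pseudogene, had 3 and 5.

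IFIT proteins bind viral RNA, and OAS proteins make the messenger that activates RNase L. None of these 10 genes passed the filter, with 62 counts in control and 178 in PGE2-deficient pools. Ifit2 measured 23.0, 0, 50.2 and 0 CPM in control mice and 78.0, 59.3, 51.0 and 41.3 CPM in PGE2-deficient mice, and control mouse 3 overlapped the latter. Ifit1 measured 34.5, 0, 20.1 and 7.84 CPM in control mice and 29.2, 11.9, 45.9 and 16.5 CPM in PGE2-deficient mice, with overlap. Neither was called (unfiltered edgeR adjusted p = 0.352 and 0.787). Ifit3 had no count in control and 8 in PGE2-deficient pools. Against a floor of 3 counts over the control group the ratio is 2.28, with the 8 counts taken as exact, so it is not a lower bound. The 8 were 4, 0, 3 and 1 in PGE2-deficient mice 1 to 4. The unfiltered fit did not call Ifit3 (edgeR adjusted p = 0.308). Ifit3b had 3 and 4 counts, and 51.2% of the 50-base stretches of Ifit3 also occur in Ifit3b, so reads may be split between them.

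Oas1a measured 34.5, 25.8, 30.1 and 15.7 CPM in control mice and 39.0, 23.7, 91.8 and 90.8 CPM in PGE2-deficient mice. PGE2-deficient mouse 2 lay within the controls, and mice 3 and 4 were highest. Oas1g measured 23.0, 25.8, 20.1 and 7.84 CPM in control mice and 39.0, 47.4, 61.2 and 49.5 CPM in PGE2-deficient mice, with no overlap. Of the 50-base stretches of Oas1a, 57.6% also occur in Oas1g, whose promoter shares the ISRE cores printed above, and counts of the pair may be exchanged. The unfiltered fit called neither (edgeR adjusted p = 0.467 for Oas1a and 0.529 for Oas1g). Oas3 had 7 and 23 counts, Oasl1 had 5 and 15, Oasl2 had 11 and 18, and Oas2 had 4 and 6.

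Parp9 and Parp14 belong to the family of enzymes that add ADP-ribose to proteins. Parp9 measured 46.0, 34.4, 20.1 and 23.5 CPM in control mice and 58.5, 47.4, 66.3 and 49.5 CPM in PGE2-deficient mice. The groups did not overlap, but control mouse 1 was close to PGE2-deficient mouse 2. Parp14 measured 115, 25.8, 30.1 and 31.4 CPM in control mice and 107, 23.7, 61.2 and 140.3 CPM in PGE2-deficient mice, with overlap. Neither was past the filter, and the unfiltered fit called neither (edgeR adjusted p = 0.668 and 0.629).

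Of the remaining effectors, Ly6a (Sca-1, a surface protein anchored by a lipid) varied most between mice. It measured 57.5, 43.0, 60.2 and 470.4 CPM in control mice and 48.7, 178, 944 and 545 CPM in PGE2-deficient mice. Control mouse 4 was above PGE2-deficient mice 1 and 2, so the groups overlapped, and the log2 fold change was 1.43 ± 0.65 (SE, adjusted p = 0.242). Without control mouse 4 Ly6a was called, at a log2 fold change of 3.07, and without PGE2-deficient mouse 3 the log2 fold change was 0.66 (edgeR adjusted p = 0.659). The adjusted p over all alternatives was 6.35e-05, with no count filter, to 0.659. Of its 50-base stretches, 19.0% also occur in other genes, mostly in Ly6c1. Ifi35 had 36 and 79 counts and a log2 fold change of 0.82 ± 0.39 (SE, adjusted p = 0.265). Ms4a4c, a membrane protein, had 55 and 93 counts and a log2 fold change of 0.49 ± 0.41 (SE, adjusted p = 0.575). Ifi44 had 11 and 68 counts with the groups apart, and its unfiltered log2 fold change was 2.36 ± 0.50 (SE, edgeR adjusted p = 0.000504). Xaf1, which antagonises an apoptosis inhibitor, had 12 and 48 counts, and Rtp4, a receptor chaperone, had 2 and 10.

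Of the 47 members, 30 missed the count filter, with 257 counts in control and 875 in PGE2-deficient pools together. In the edgeR fit without a filter, 46 of 47 members had a positive log2 fold change, against 51.8% of the 13311 genes with a count, and Ddx60 was the exception. The median was 1.21, or 1.19 with Ifit3 at its ratio to the floor of 3 counts, against 0.04 over all genes. That fit called 14 members higher and 0 lower, against 0.826% of genes called higher. It gives little weight to a gene's own spread between mice. For Irf1 its SE was 0.377 (edgeR adjusted p = 0.000393), against 0.586 with the filter (edgeR adjusted p = 0.0795). Among the 14, Irf1, Irf7, Ly6a, Slfn1 and Slfn5 had mice that overlapped between the groups. The 14 are Ifi27l2a, Ifi44, Irf1, Irf7, Isg15, Isg20, Ly6a, Mx1, Phf11b, Phf11d, Slfn1, Slfn5, Usp18 and Zbp1, while Trim30a missed (edgeR adjusted p = 0.0913). In 14 of 47 members every PGE2-deficient mouse was above every control mouse, as in 2.50% of genes with a count, and in 0 members the reverse held.

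**Figure D5:**
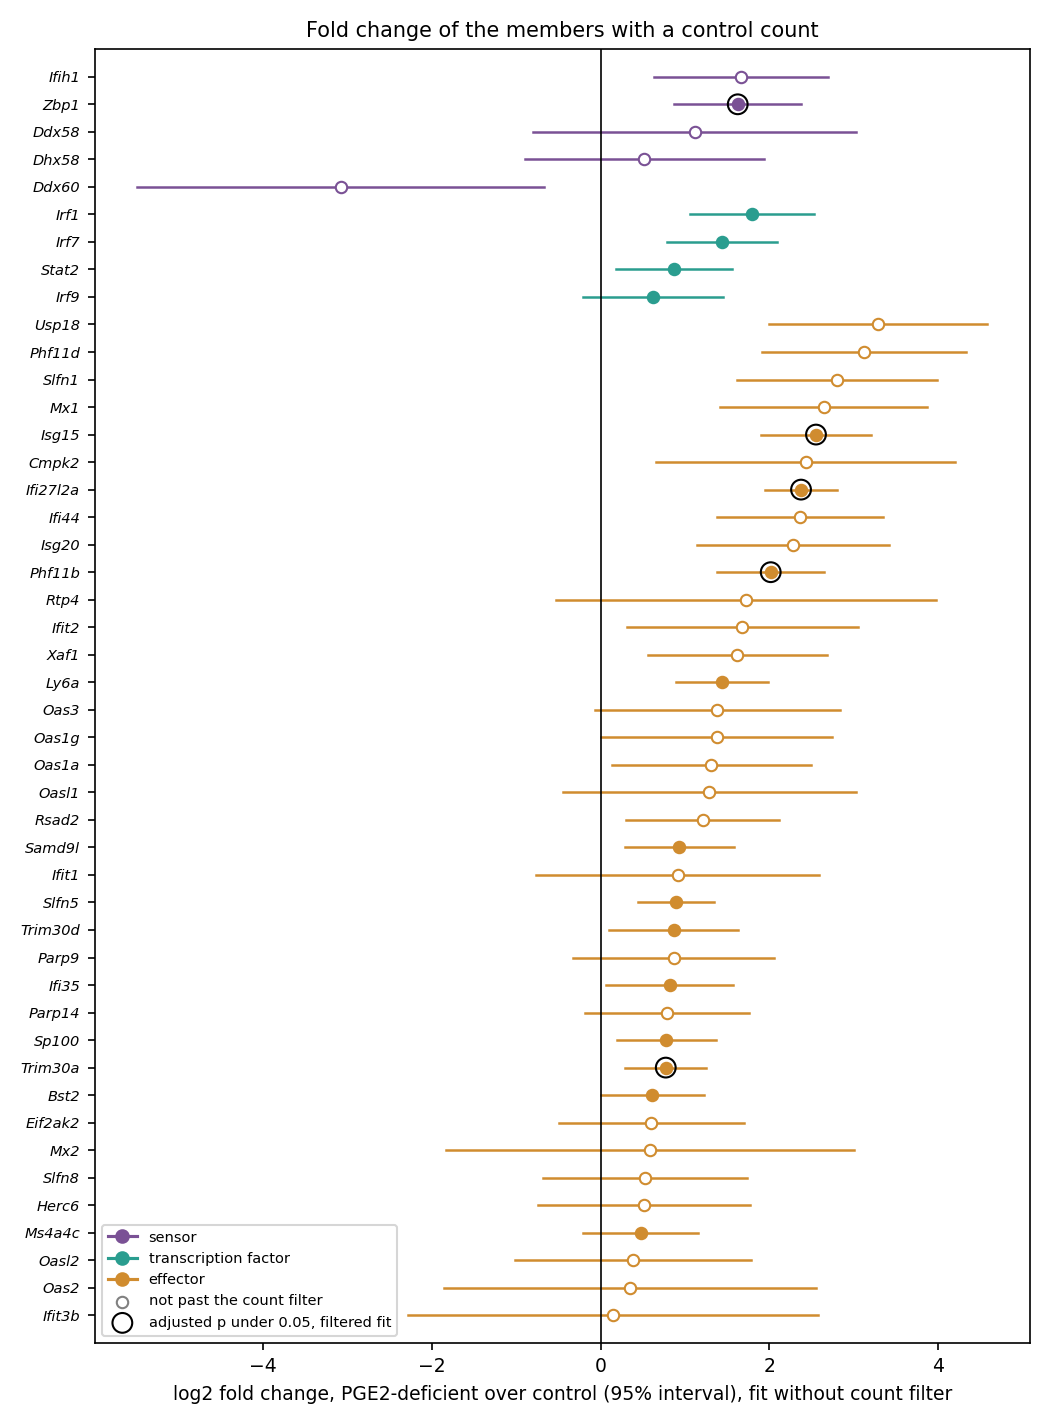
Log2 fold change of PGE2-deficient over control mice (x axis) with its 95% interval for the 46 members with a control count, from the edgeR fit without a count filter, ordered by role and size; Ifit3, with no control count, is left out. Open points did not pass the count filter, and ringed points were called in the filtered fit. Only Ddx60 lies below 0, and intervals widen for members with few counts.

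Levels are set side by side between genes per kilobase of exon, a scale that holds if reads were counted and not if molecules were. On it Ifi27l2a was highest in both groups, at 687 CPM per kb in control and 3521 CPM per kb in PGE2-deficient mice. In control mice Bst2 (176), Ly6a (131) and Isg15 (95.8 CPM per kb) followed, and in PGE2-deficient mice Isg15 (561), Ly6a (356) and Phf11b (314 CPM per kb) did. Usp18 stood at rank 37 in control and rank 18 in PGE2-deficient mice. Without division by length, the mean level of Slfn5 (440.2 CPM) and Trim30a (341 CPM) was above that of Ifi27l2a (318 CPM) in control mice. Mice also differed within groups. Control mouse 1 had the highest level of the 4 control mice in 28 members, and control mouse 2 the lowest in 17. In the PGE2-deficient group mouse 1 was highest in 19 members and mouse 3 in 17, and mouse 2, with 2 pools, was lowest in 23.

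Many members lie in clusters of related genes. All 6 Oas genes lie on chromosome 5, the 4 Ifit genes on chromosome 19, the 3 Schlafen genes on chromosome 11, both Phf11 genes on chromosome 14 and both Trim30 genes on chromosome 7. In GENCODE M21, exons of 10 members overlap exons of a gene on the opposite strand, among them Irf7 with Phrf1, Parp9 with Dtx3l, and Slfn5 with Slfn5os. Exons of 5 overlap a gene on the same strand, among them Irf9 with Rnf31. Whether counting used strand is not given in the sources used here, so reads of such partners cannot be told apart.

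Among 43 other genes of interferon induction and signalling, 18 were tested, 3 were called higher and 1 lower. Over all tested genes 2.70% were called higher and 2.26% lower. The median log2 fold change of the 18 was 0.03, against 0.01 over all tested genes. Irf8, the lineage factor of cDC1, rose by 0.85 ± 0.21 on the log2 scale (SE, adjusted p = 0.0215), and Tlr3, the endosomal sensor of double-stranded RNA, by 1.25 ± 0.35 (SE, adjusted p = 0.0448). Both are among the cDC1 markers summed above. Irf2bp2, a corepressor of Irf2, fell by 1.28 ± 0.37 (SE, adjusted p = 0.0497). Of the receptor genes, Ifnar1 had 29 and 22 counts and Ifnar2 39 and 41, neither enough for the test. Jak2, Irf5 and Samhd1 were tested and not called, with log2 fold changes of -0.04 ± 0.22, 0.50 ± 0.23 and 0.53 ± 0.23 (SE, adjusted p = 0.946, 0.248 and 0.216). The interferon genes themselves were not analysed here.

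The comparison was repeated without the 7 control and 5 PGE2-deficient pools that held 10 or more counts of pDC, macrophage and T cell markers. All 8 mice kept at least 1 pool, but 866 genes and 6 members were left for the test. All 6 had a positive fold change (median 1.59), and Ifi27l2a (log2 fold change 2.88) and Isg15 were called. The count filter was applied again to the pools kept, and here too it favours members high in the PGE2-deficient group. Isg15, with 3 control counts, passed through that group, so the signs and median of the 6 do not stand for the whole list. Over the 866 genes, 5 were called higher and the median log2 fold change was 0.02. Isg15 had 3 and 138 counts, a ratio of 30.5 (95% interval 10.2 to 149.7, counting error only), and its fitted log2 fold change was 4.84, against 2.58 in all pools. Phf11b, at 1.69 against 2.04 in all pools (edgeR adjusted p = 0.226), and Trim30a, at 0.42 against 0.79 (edgeR adjusted p = 0.620), were not called, and Zbp1 had too few counts. Pools were not chosen by cDC2, maturation, monocyte or NK cell markers. Counted per total, 45 of 47 members were higher in the PGE2-deficient pools kept. The same share over all genes was not computed, and many of the 45 rest on few counts. Only 37 of the 47 had a control count in the pools kept. The difference in mean log2 CPM over all members was 1.03. Over single pools the 5 control pools kept had means of 6.02 to 6.52, and the 6 PGE2-deficient pools kept 6.62 to 7.66, with no overlap. Rsad2 had 0 counts in the control pools kept and 38 in the PGE2-deficient ones. That contrast rests largely on 2 pools. Of its 20 control counts over all pools, 17 lay in pool 2 of control mouse 1, which was left out. Of the 38, 23 lay in pool 2 of PGE2-deficient mouse 1, which was kept.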

How the data were processed

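RNA of CD103+ cDC1 pools was measured by Smart-seq3 in 23 libraries. The deposited values are raw counts, given by the authors as whole numbers for each gene in each library. Reads were aligned with STAR 2.5.4b and the build named is GRCm38 (mm10), per the submitters' processing notes. Which counter, annotation and strand setting were used, and whether molecular identifiers were counted, is not given in the sources used here, so count intervals cover counting error only. Libraries of a mouse, technical replicates per the labels, were summed. Rows with symbols turned into dates (16) were renamed by identifier. Genes were filtered with filterByExpr (minimum count 10) and tested with edgeR 4.0.16 (quasi-likelihood F-test, TMM, two-sided, Benjamini-Hochberg over 2076 genes, threshold 0.05) in R 4.3.3. Standard errors were derived from fold changes and F statistics. The test was checked on simulated data. Alternatives were other scalings and filters, DESeq2 1.42.0, robust dispersion, limma 3.58.1 (voom), fewer libraries or mice, and the mouse number as block. Promoters and annotation were read in Python 3.11.15, and figures drawn with matplotlib 3.10.9. Full values are given for called members and the 2 with most counts in each role or effector family, and for the pathway genes called, Ifnar1, Ifnar2, Irf8 and the 4 with most counts; 1 pathway gene is not reported here. Fold changes of Ddx60, Mx1, Isg20, Phf11d and Ifi44 were added after their values were seen. The members, lists and tests were chosen with earlier results of these data known.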

Additional observations from a re-analysis of the deposited data

Results flagged for a closer look

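A sample far from the rest of its group was looked for in 50 groups of 4 mice, and 5 were found, all in the control group. Chance alone gives such a sample in about 1 in 20 groups of this kind. Trim30a stood at 401.5 CPM in control mouse 3, against 327 CPM in the next mouse. Stat2 stood at 151 CPM in the same mouse, against 94.1 CPM in the next. Parp14 stood at 115 CPM and Slfn1 at 57.5 CPM in control mouse 1, against 31.4 and 7.84 CPM in the next mouse. Ly6a stood at 470.4 CPM in control mouse 4, against 60.2 CPM in the next. Each of these 5 was the highest of its group.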

How the results depend on the processing

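No called member changed direction under any alternative, and no member was called lower in any. Isg15 and Ifi27l2a were called in all 19 alternatives. Phf11b was called in all but the one without libraries with 10 or more marker counts of other cells (below, other-cell markers). Zbp1 was called in all but 2 fits without a mouse and the one without those libraries, where it had too few counts. The 5 members called higher became 9 with a minimum count of 5, 14 with no filter and 2 without libraries with other-cell markers, where 866 genes were tested. Leaving out 1 mouse at a time gave 4 to 11 members (10 without control mouse 1, 11 without PGE2-deficient mouse 2). The 56 genes called higher became 110 with no filter, 32 with technical replicates 2 and 3 only and 5 without libraries with other-cell markers, and 31 to 67 without 1 mouse. The 47 genes called lower became 24 with library totals, 84 with no filter, 79 with voom, 19 with technical replicates 2 and 3, 28 with the replicate block, 6 without libraries with other-cell markers and 23 to 45 without 1 mouse. The 4 called pathway genes became 1 with technical replicates 2 and 3, 2 with the replicate block, 1 without libraries with other-cell markers and 0 to 3 without 1 mouse. The difference in mean log2 CPM of 0.97 became 1.30 with a prior count of 0.5 and 0.67 as a mean over libraries, and 0.85 to 1.12 without 1 mouse.

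Mouse numbers recur in both groups, but same-numbered mice correlated by -0.089 to 0.10, and 1 of 4 numbers correlated best with its own counterpart, so they were not taken as pairs. With the replicate block 5 members were called, Irf1 in place of Trim30a. The cause of these changes was not tested.

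Depth limits what can be read for 30 of 47 members, which have 7 to 79 counts over all mice. A member not called here is not shown to be unchanged.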
